A study of Homo sapiens with 12 samples.

Results

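The 10 genes described here encode the subunits of the transcription factor NF-kB and the proteins that hold it in check: NFKB1, NFKB2, REL, RELA and RELB, the inhibitors NFKBIA, NFKBIB and NFKBIE, the ubiquitin-editing enzyme TNFAIP3 (A20) and the nuclear regulator BCL3. They were taken by name, and each was read from the probe set with the highest mean level among those that carry that gene alone. They are 10 of the 18239 genes with a probe set of their own, and all 10 were among the 13120 genes that passed the filter on low values (above a log2 level of 4.20, the 40th percentile of all values, in at least 3 arrays). Levels were measured on 12 Affymetrix arrays, from 150 ng of total RNA each, in 3 human lymphoma lines, OCI-LY3, OCI-HBL1 and OCI-LY10. All belong to ABC-DLBCL, the form of diffuse large B-cell lymphoma that resembles activated B cells. Each line gave 1 array under each of 4 treatments. The treatments were Control, CPI203 at 500 nM (an inhibitor of the BET bromodomain proteins), IRAKi at 50 µM (an inhibitor of the kinases IRAK1 and IRAK4 whose identity the labels do not give) and Combo, which joined both compounds. The labelled time is 6 h for the IRAKi arrays and 24 h for all others, and the protocol states 18 h with CPI203 and 6 h with IRAKi. In every comparison that uses the IRAKi arrays, those with Combo included, the compounds and the labelled time therefore cannot be told apart. The study asked how blocking IRAK and BET proteins together bears on NF-kB in ABC-DLBCL with mutant MYD88, and only cultured lines represent the disease.

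NF-kB acts as dimers of its 5 subunits. In resting cells the IkB proteins NFKBIA, NFKBIB and NFKBIE keep these dimers in the cytoplasm, and IkB kinase frees them by marking the inhibitor for destruction. Several members are themselves switched on by NF-kB, among them NFKBIA and TNFAIP3, which then end the signal. ABC-DLBCL is known for NF-kB that stays active through upstream signalling, including the MYD88 arm, in which IRAK kinases act.

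The promoters are shown first because members of this family are known to be controlled by the factor they encode or restrain. RefSeq (GRCh38.p14) gave windows from 250 bases before to 50 bases after the start site for 8 of the 10 genes, 13 windows in all, while RELB and NFKBIE were not matched. Each window was searched on both strands for the 10-letter NF-kB consensus, and overlapping matches were merged. It was present in 7 of the 8 genes (87.5%) and in 8 of the 13 windows (61.5%), against 13.3% of the 27305 genes and 11.3% of the 35116 windows of the whole reference. RELA was the member without a match in either of its 2 windows. The shares were 20% in IKK kinases and their activators (2 of 10 genes with a window), 11.1% in the MYD88 arm (1 of 9), 35.7% in other inhibitors (5 of 14) and 46.7% in NF-kB target genes (14 of 30). A match describes the letters of the window and says nothing about binding in these cells. The stretches around one match per gene are given 5′ to 3′ on the gene's strand, to let the sites of the members be compared, with the matching bases in capitals (for NFKB2, one from each of the 2 windows that hold a match; for TNFAIP3, 2 neighbouring matches).
NFKB1, chr4:102501300-102501329, match from -49 to -40: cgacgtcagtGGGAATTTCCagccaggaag
NFKB2, chr10:102394462-102394491, match from -107 to -97: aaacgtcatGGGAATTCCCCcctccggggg
NFKB2, chr10:102395674-102395703, match from -21 to -12: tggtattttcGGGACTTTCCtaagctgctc
REL, chr2:60881518-60881547, match from -47 to -37: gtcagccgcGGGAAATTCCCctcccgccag
NFKBIA, chr14:35404811-35404840, minus strand, match from -81 to -72: tgactggcttGGAAATTCCCcgagcctgac
NFKBIB, chr19:38899932-38899961, match from -28 to -18: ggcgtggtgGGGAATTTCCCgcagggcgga
TNFAIP3, chr6:137867188-137867217, matches from -67 to -58 and from -55 to -46: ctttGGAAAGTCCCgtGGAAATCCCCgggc
BCL3, chr19:44748700-44748729, match from 3 to 12 after the start: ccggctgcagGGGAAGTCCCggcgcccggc

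REL and NFKBIA were the 2 members that rose under Combo, and their 250 bases before the start are printed with the match in capitals. A match was present in 7 of the 8 members with a window, among them BCL3, which fell, so it does not set these 2 apart. A link between a match and a change was not tested.
REL, chr2:60881324-60881573, plus strand: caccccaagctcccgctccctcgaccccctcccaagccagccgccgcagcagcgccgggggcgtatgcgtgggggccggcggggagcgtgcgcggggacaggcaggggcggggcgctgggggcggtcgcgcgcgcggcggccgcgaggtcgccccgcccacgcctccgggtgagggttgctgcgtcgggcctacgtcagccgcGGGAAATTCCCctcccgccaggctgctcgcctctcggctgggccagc
NFKBIA, chr14:35404750-35404999, minus strand: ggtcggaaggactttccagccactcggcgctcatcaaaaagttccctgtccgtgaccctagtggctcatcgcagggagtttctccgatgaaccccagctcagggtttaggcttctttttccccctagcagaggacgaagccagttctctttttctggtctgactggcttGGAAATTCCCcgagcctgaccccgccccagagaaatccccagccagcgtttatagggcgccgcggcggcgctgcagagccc

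The arrays were alike in their overall levels, which the normalisation of the deposited values (RMA) brings about by its construction. Any pair of arrays correlated at 0.923 to 0.991 over all probe sets. All 5 B-cell markers and all 7 ABC-DLBCL markers with a probe set were above the filter level on every array, and none of the 5 T-cell, 5 myeloid or 5 fibroblast and epithelial markers was. Of those, CD3G was above it on 8 of the 12 arrays, ITGAM on 6, EPCAM and KRT8 on 4 each (up to 6.92 and 6.82), CD3E on 3, 5 others on 1 each and 5 on none, and their part in the results was not tested. Of 5 markers of the germinal-centre subtype, 2 were above it on every array. The replicates are the 3 lines, so a p-value measures only the spread of these lines. The poly-A control probe sets, which read RNA added before labelling, were higher than in Control by 0.30 ± 0.17 under CPI203, 0.22 ± 0.03 under IRAKi and 0.48 ± 0.27 under Combo on the log2 scale (SD, n = 3). Scaling the arrays to these controls therefore moves the change of the median gene to -0.295, -0.221 and -0.48 in these 3 comparisons. It moves it to -0.184 in Combo against CPI203 and to -0.257 in Combo against IRAKi. Between lines the scaling moves the median difference to -0.148 (OCI-LY3 against OCI-HBL1), -0.31 (OCI-LY10 against OCI-HBL1) and 0.166 (OCI-LY3 against OCI-LY10). The directions below are relative to the typical gene of each array, and the part that a general change of RNA amount has in them was not tested.

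Under Combo, REL and NFKBIA rose and BCL3 fell against Control, and the other 7 members did not pass the test. REL, the activating subunit c-Rel that mature B cells hold in quantity, rose by 0.87 ± 0.24 log2 units (SE). NFKBIA (IkB-alpha), the inhibitor that NF-kB itself induces, rose by 0.83 ± 0.21. BCL3, a nuclear IkB-like protein that joins NFKB1 or NFKB2 dimers on DNA and acts as a co-regulator, fell by 1.84 ± 0.47. The family had 2 of 10 genes higher, where 15.4% of all genes tested were, and 1 of 10 lower, where 16.7% were, or 3 of 10 in either direction against 32.1%. These shares are near the background of the comparison, so the count by itself says nothing particular about the family. The median change over the 10 members was -0.05, against 0 over all genes.

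REL is given first among the subunits. Its log2 level in Control was 9.24 (OCI-LY3), 9.75 (OCI-HBL1) and 9.00 (OCI-LY10). Under CPI203 it was 9.84, 9.63 and 9.76 in the same order of lines, under IRAKi 9.99, 9.40 and 9.63, and under Combo 10.37, 9.75 and 10.47. OCI-LY3 and OCI-LY10 were higher under each treatment than in Control and highest under Combo, while OCI-HBL1 was level or lower throughout. The Combo change was 1.13 in OCI-LY3, 1.47 in OCI-LY10 and 0.01 in OCI-HBL1, so the Control and Combo arrays only just failed to overlap. The share of all genes without such overlap was not computed. In limma's fit over all 12 arrays the rise was 1.83-fold, with a 95% interval of 0.34 to 1.40 log2 units and an adjusted p of 0.019. The adjusted p was 0.17 without OCI-LY3 (change 0.74), 0.0036 without OCI-HBL1 (1.30) and 0.21 without OCI-LY10 (0.57). Fitted on the Control and Combo arrays alone, the change of 0.87 had an adjusted p of 0.11. Scaled to the poly-A controls the change was 0.40, with an adjusted p of 0.17. CPI203 alone gave 0.41 ± 0.24 (adjusted p = 0.29), IRAKi alone 0.35 ± 0.24 (0.53), and Combo against CPI203 0.46 ± 0.24 (0.32). Of the variation of REL over the 12 arrays, 59.4% lay between treatments and 5.3% between lines, where the medians over all genes were 21.5% and 53.3%.

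**Figure D1:**
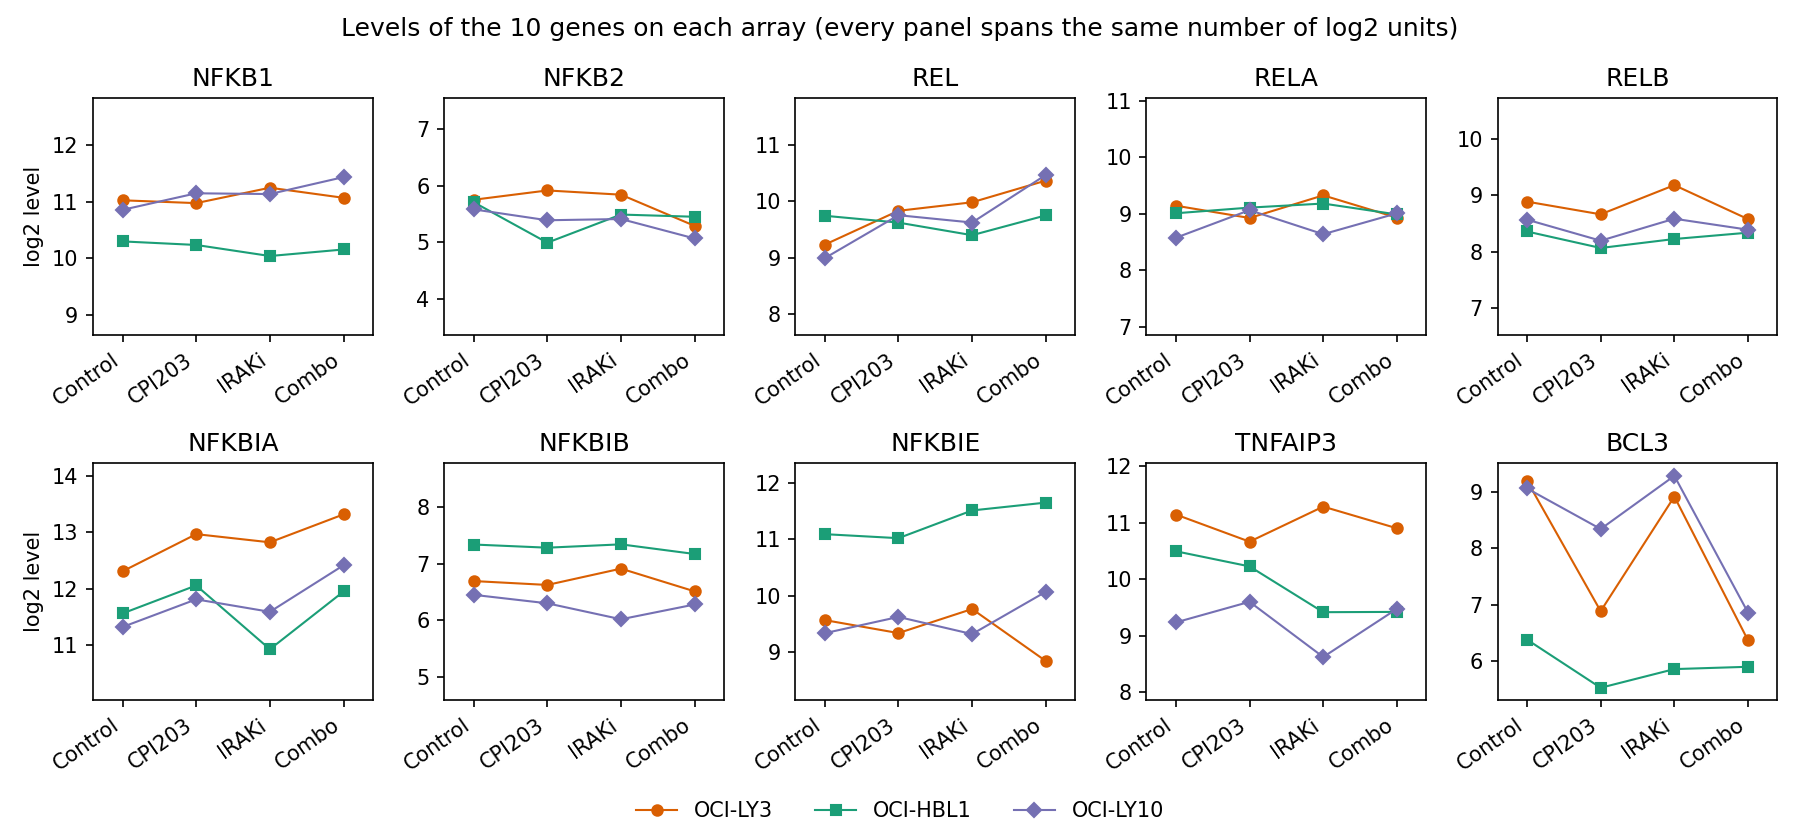
Log2 level (y axis) of each of the 10 genes on the 12 arrays, by treatment (x axis) and cell line (colour and shape); every panel spans the same number of log2 units and lines join arrays of 1 cell line. REL and NFKBIA end highest under Combo in OCI-LY3 and OCI-LY10, BCL3 is lower under Combo than in Control in all 3 lines, and NFKBIE and NFKBIB stay highest in OCI-HBL1.

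The remaining subunits moved little with treatment. NFKB1, whose precursor is cut to a DNA-binding subunit without an activation domain, stood in Control at 11.03 (OCI-LY3), 10.30 (OCI-HBL1) and 10.86 (OCI-LY10), and under Combo at 11.07, 10.16 and 11.44. It was a little higher in OCI-LY3 and OCI-LY10 and lower in OCI-HBL1. The Combo change was 0.16 ± 0.15, with an interval of -0.18 to 0.50 (adjusted p = 0.47). It turned to -0.32 with poly-A scaling and to -0.05 without OCI-LY10. RELA, the most widely used activating subunit, was at 9.15, 9.01 and 8.58 in Control and at 8.93, 8.99 and 9.01 under Combo, in the order OCI-LY3, OCI-HBL1 and OCI-LY10. The 3 lines lay within 0.08 log2 units of each other under Combo, but the mean change was only 0.07 ± 0.17 (adjusted p = 0.81).

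The non-canonical pair were lower under Combo in all 3 lines, without passing the test. NFKB2, whose precursor yields the usual partner of RELB, was at 5.75, 5.71 and 5.58 in Control and at 5.29, 5.45 and 5.06 under Combo, again in the order OCI-LY3, OCI-HBL1 and OCI-LY10. The groups did not overlap, but the share of all genes without overlap between Control and Combo was not computed. The change was -0.41 ± 0.18, with an interval of -0.82 to 0 (adjusted p = 0.12). RELB was at 8.88, 8.36 and 8.56 in Control and at 8.57, 8.33 and 8.39 under Combo. The change was -0.17 ± 0.13 (adjusted p = 0.37), and OCI-HBL1 was nearly level. Under CPI203 alone RELB stood at 8.66, 8.06 and 8.19, lower than Control in 3 of 3 lines, with a change of -0.30 ± 0.13 (adjusted p = 0.18). Both genes passed the test under Combo with poly-A scaling, NFKB2 at -0.89 (adjusted p = 0.011) and RELB at -0.65 (adjusted p = 0.031). That scaling lowers every Combo change by 0.48, and 41.8% of all genes passed as lower with it.

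NFKBIA was the inhibitor that changed. Its Control levels were 12.31 (OCI-LY3), 11.56 (OCI-HBL1) and 11.32 (OCI-LY10). They were 12.97, 12.06 and 11.81 under CPI203, 12.82, 10.93 and 11.59 under IRAKi, and 13.32, 11.95 and 12.41 under Combo. Every line was higher with CPI203 and with Combo than in Control, although the ranges of the groups overlap. With IRAKi alone the lines differed, with 0.51 in OCI-LY3, 0.27 in OCI-LY10 and -0.63 in OCI-HBL1, and the mean change was 0.05 ± 0.21 (adjusted p = 0.94). The Combo change was 1.01 (OCI-LY3), 0.39 (OCI-HBL1) and 1.09 (OCI-LY10), or 1.78-fold in the fit, with an interval of 0.36 to 1.30 log2 units (adjusted p = 0.013). CPI203 alone gave 0.55 ± 0.21, in 3 of 3 lines, with an adjusted p of 0.12. Without OCI-LY3 the Combo change was 0.74 (adjusted p = 0.11), without OCI-HBL1 1.05 (0.005) and without OCI-LY10 0.70 (0.13). With poly-A scaling it was 0.35 (adjusted p = 0.22). The other 2 probe sets for NFKBIA gave 0.99 ± 0.23 (adjusted p = 0.01) and 1.06 ± 0.23 (adjusted p = 0.0068), and the second probe set for REL gave 0.96 ± 0.23 (adjusted p = 0.01).

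The other IkB proteins did not pass the test. NFKBIE (IkB-epsilon) was at 9.57 (OCI-LY3), 11.09 (OCI-HBL1) and 9.34 (OCI-LY10) in Control, and at 8.85, 11.65 and 10.07 under Combo. It changed by -0.73 in OCI-LY3, by 0.56 in OCI-HBL1 and by 0.73 in OCI-LY10, with a mean change of 0.19 ± 0.28 (adjusted p = 0.65). Whether the lines differ in this response cannot be tested with 1 array each. NFKBIB (IkB-beta) was at 6.70, 7.34 and 6.45 in Control and at 6.51, 7.18 and 6.28 under Combo. All 3 lines were lower, with a mean change of -0.17 ± 0.14 (adjusted p = 0.38).

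TNFAIP3 encodes A20, which edits ubiquitin chains on the proteins that relay the signal and is often lost in ABC-DLBCL. Its Control levels were 11.15 (OCI-LY3), 10.50 (OCI-HBL1) and 9.24 (OCI-LY10). Under IRAKi they were 11.29, 9.42 and 8.63, and under Combo 10.91, 9.42 and 9.48. OCI-HBL1 changed by -1.08 with IRAKi and by -1.07 with Combo, and OCI-LY10 by -0.61 with IRAKi. The nonspecific controls of that OCI-LY10 array read 4.00, higher than on the other arrays. Without it the mean IRAKi change was -0.29 (adjusted p = 0.78). Over all 12 arrays the mean changes of TNFAIP3 were -0.52 ± 0.31 under IRAKi (adjusted p = 0.47), -0.13 ± 0.31 under CPI203 (0.83) and -0.36 ± 0.31 under Combo (0.41). Its second probe set gave -0.86 ± 0.31 under IRAKi (unadjusted p = 0.02, adjusted p = 0.26 in limma's fit) and -0.48 ± 0.31 under Combo (adjusted p = 0.29). Poly-A scaling of the main one gave -0.84 under Combo (adjusted p = 0.015), where 41.8% of all genes passed as lower.

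BCL3 had the widest range of the family. In Control it was at 9.20 (OCI-LY3), 6.38 (OCI-HBL1) and 9.06 (OCI-LY10). Under CPI203 it was at 6.88, 5.53 and 8.34, under IRAKi at 8.92, 5.86 and 9.28, and under Combo at 6.37, 5.90 and 6.86. OCI-LY3 and OCI-LY10 started high and came close to the level of OCI-HBL1 under Combo, with changes of -2.83 and -2.20, while OCI-HBL1 started low and changed by -0.48. In OCI-LY3 most of the fall was already present with CPI203 alone (-2.31), whereas OCI-LY10 had -0.72 with CPI203 and a further -1.48 with Combo. The fit gave a 3.57-fold fall under Combo, with an interval of -2.89 to -0.79 log2 units (adjusted p = 0.014), and -1.29 ± 0.47 under CPI203 (adjusted p = 0.10). Without OCI-LY3 the Combo change was -1.34 (adjusted p = 0.14), without OCI-HBL1 -2.51 (0.0049) and without OCI-LY10 -1.65 (0.10). With poly-A scaling it was -2.31 (adjusted p = 0.00028), and the CPI203 change passed the test too (-1.60, adjusted p = 0.016). With that scaling 41.8% of all genes passed as lower under Combo and 11.7% under CPI203.

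The fall of BCL3 rests on 1 of its 4 probe sets. That probe set had a mean log2 level of 7.38, and its name ends in x_at, which marks probes that can also match other transcripts. The probe sets used for NFKBIA and NFKBIB and the second one for REL, among others of the family, have the same ending. The other BCL3 probe sets had mean levels of 4.40, 4.00 and 3.64, near or below the filter level of 4.20. The first gave -0.15 ± 0.21 under Combo (adjusted p = 0.64), the second -0.22 ± 0.18 (adjusted p = 0.38), and the third was above the filter level on no array and was not tested. They do not show the fall, at levels where little change can be seen. Of the 22 probe sets of the family, the additional ones for RELA (mean levels 4.52 and 4.45) were also near the filter level, and those for NFKBIB were at 6.36, 6.15 and 4.90.

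**Figure D2:**
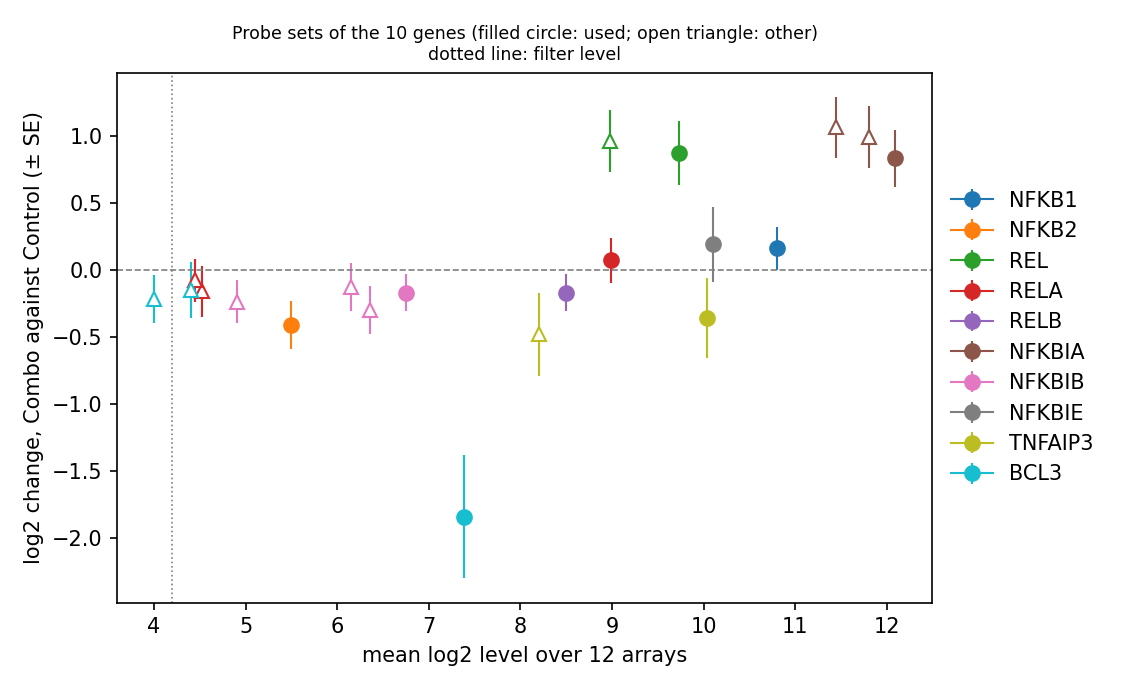
Log2 change of Combo against Control with its standard error (y axis) against the mean log2 level over 12 arrays (x axis) for the probe sets of the 10 genes that were fitted; filled circles are the probe sets used, open triangles the others, and the dotted line is the filter level. The probe sets of NFKBIA and of REL give similar rises, while the BCL3 fall is seen in the probe set at 7.38 and not in those near the filter level.

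CPI203 alone called none of the members, against 13.1% of all genes tested. Unadjusted p-values were below 0.05 for 2 of 10, where 28.3% of all genes had such a value, namely NFKBIA (higher in 3 of 3 lines) and BCL3 (lower in 3 of 3 lines). IRAKi alone called none, against 0.168% of all genes (22 genes), and no member had an unadjusted p below 0.05 at the probe set used, where 15.4% of all genes did. Among the members' other probe sets there were 3 such values, 1 each for TNFAIP3, NFKBIB and RELA, and none passed after adjustment. The intervals of IRAKi against Control at the probe sets used were narrowest for RELB (-0.24 to 0.36) and widest for BCL3 (-1.24 to 0.86), so changes of BCL3 of up to about that size were not detectable with these arrays. CPI203, IRAKi and Combo were all set against the same 3 Control arrays, so the 3 comparisons are not independent of each other.

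**Figure D3:**
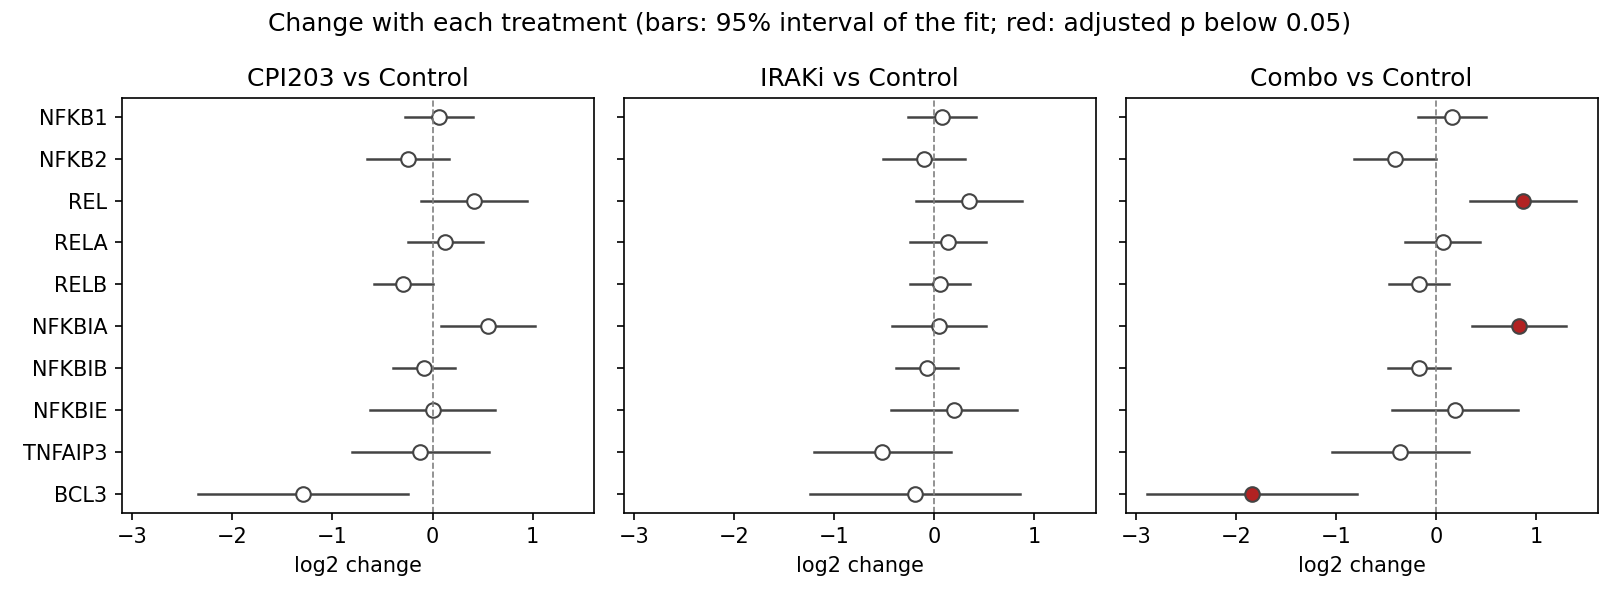
Log2 change of each of the 10 genes (x axis) against Control under CPI203, IRAKi and Combo, from the fit over 12 arrays; points are the fitted changes, bars their 95% intervals, and red points passed an adjusted p of 0.05. Only the Combo panel holds red points, at REL (0.87), NFKBIA (0.83) and BCL3 (-1.84).

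Between Combo and IRAKi 2 members passed the test, and between Combo and CPI203 none did. Against IRAKi, NFKBIA was higher by 0.78 ± 0.21 (adjusted p = 0.029, 3 of 3 lines) and BCL3 lower, by -1.64 ± 0.47 (adjusted p = 0.038, 2 of 3 lines). The members thus had 1 gene higher, where 8.21% of all genes were, and 1 lower, where 10.5% were (18.7% in either direction). The BCL3 differences were -2.55 in OCI-LY3, -2.42 in OCI-LY10 and 0.04 in OCI-HBL1. Without the OCI-LY10 array of IRAKi, whose nonspecific controls read 4.00 against 3.64 to 3.79 on the others, NFKBIA was at 0.86 (adjusted p = 0.06) and BCL3 at -1.47 (0.13), and neither passed. With poly-A scaling NFKBIA was at 0.52 (adjusted p = 0.14) and BCL3 at -1.90 (0.0041). Against CPI203 no member passed and none had an unadjusted p below 0.05, where 4.66% of all genes were called and 20.8% had such a p. REL came nearest, with 0.46 ± 0.24 in 3 of 3 lines. The departure from additive log2 changes, which is Combo minus CPI203 minus IRAKi plus Control, passed for no member and for 0.00762% of all genes, a single gene. No member had an unadjusted p below 0.05, where 8.27% of all genes did. For NFKBIA it was 0.23 ± 0.30, for REL 0.11 ± 0.33 and for BCL3 -0.35 ± 0.66, so these sums could not be told from additive ones, nor from departures as large as the interval for BCL3 (-1.83 to 1.14). This departure and Combo against IRAKi both use the IRAKi arrays, so in them the labelled time cannot be told apart from the compounds.

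The cell lines differed more than the treatments did for most members. The line took a median of 65% of the variation of a member, against 53.3% for all genes, and the treatment 14.6%, against 21.5%. It took the largest shares in NFKBIB (91.3%), NFKB1 (90.4%) and NFKBIE (88.9%). The 4 arrays of a line are its 4 treatments, so the tests between lines measure how steady a difference was over treatments, not the spread of separate cultures. The share of all genes whose ranges do not overlap between lines was not computed, while 46.6% to 48.5% of them passed these tests.

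OCI-HBL1 was set apart by NFKB1, NFKBIB, NFKBIE and BCL3. NFKBIE ranged from 11.02 to 11.65 over the 4 arrays of OCI-HBL1, from 8.85 to 9.77 in OCI-LY3 and from 9.32 to 10.07 in OCI-LY10. OCI-HBL1 did not overlap the other lines, and OCI-LY3 and OCI-LY10 overlapped each other. Against OCI-HBL1 the difference was -1.94 ± 0.24 log2 units for OCI-LY3 (adjusted p = 0.00012) and -1.73 ± 0.24 for OCI-LY10 (adjusted p = 0.00024). NFKBIB ran from 7.18 to 7.35 in OCI-HBL1, from 6.51 to 6.92 in OCI-LY3 and from 6.02 to 6.45 in OCI-LY10, with no overlap between any of the lines. Against OCI-HBL1 it differed by -0.60 ± 0.12 in OCI-LY3 (adjusted p = 0.0023) and by -1.02 ± 0.12 in OCI-LY10 (adjusted p = 7.5e-05). In limma's fit its probe sets at mean levels of 6.36 and 6.15 also passed in both comparisons, the latter only just in OCI-LY3 (-0.43, adjusted p = 0.049). The one at 4.90 passed in neither (0.13, adjusted p = 0.48 in OCI-LY3, and -0.21, adjusted p = 0.26 in OCI-LY10). Unlike NFKBIE and NFKBIB, NFKB1 was lowest in OCI-HBL1, at 10.04 to 10.30 against 10.98 to 11.25 in OCI-LY3 and 10.86 to 11.44 in OCI-LY10. It was higher than in OCI-HBL1 by 0.90 ± 0.13 (adjusted p = 0.00033) and 0.96 ± 0.13 (adjusted p = 2e-04). BCL3 was higher by 1.92 ± 0.41 in OCI-LY3 (adjusted p = 0.0031) and by 2.47 ± 0.41 in OCI-LY10 (adjusted p = 0.00066). The BCL3 gap was uneven over the treatments, and the ranges of OCI-LY3 (from 6.37) and OCI-HBL1 (up to 6.38) overlapped. OCI-LY3 exceeded OCI-HBL1 by 2.81 in Control and by 0.47 under Combo, and its other 2 tested probe sets did not show a difference that passed in either comparison.

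OCI-LY3 stood apart by NFKBIA, TNFAIP3 and RELB. TNFAIP3 ran from 10.67 to 11.29 in OCI-LY3, from 9.42 to 10.50 in OCI-HBL1 and from 8.63 to 9.60 in OCI-LY10. OCI-LY3 lay above both other lines without overlap, and those 2 overlapped. OCI-LY10 against OCI-HBL1 gave -0.66 ± 0.26 (adjusted p = 0.065), which did not pass, while the second probe set gave -1.17 ± 0.27 (adjusted p = 0.005) and the mean of both -0.91 (adjusted p = 0.013). OCI-LY3 was higher by 1.11 ± 0.26 than in OCI-HBL1 (adjusted p = 0.0062) and by 1.77 ± 0.26 than in OCI-LY10 (adjusted p = 0.00042). NFKBIA was higher in OCI-LY3 than in OCI-HBL1 by 1.23 ± 0.18 (adjusted p = 0.00036) and than in OCI-LY10 by 1.07 ± 0.18 (adjusted p = 9e-04), and the same was true at its other 2 probe sets. RELB was higher by 0.58 ± 0.12 (adjusted p = 0.0022) and by 0.39 ± 0.12 (adjusted p = 0.018). Unlike for TNFAIP3, the ranges of OCI-LY3 and OCI-LY10 overlapped for NFKBIA (from 12.31 and up to 12.41) and for RELB (from 8.57 and up to 8.58). OCI-LY3 also had more NFKBIB than OCI-LY10, by 0.42 ± 0.12 (adjusted p = 0.015), which the other 3 probe sets of that gene did not show past the test.

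REL, RELA and NFKB2 passed in no comparison of lines at the probe sets used in the main fit. Another RELA probe set, at a mean level of 4.45, gave -0.37 ± 0.14 in OCI-LY10 against OCI-HBL1 (adjusted p = 0.045 in limma's fit). REL passed in OCI-LY3 against OCI-HBL1 in 1 of 14 alternative settings (adjusted p = 0.037). In OCI-LY3 against OCI-HBL1, 7 members passed, 5 higher and 2 lower, where 47.2% of all genes did (25.1% higher and 22.2% lower). In OCI-LY10 against OCI-HBL1, 4 passed, 2 each way, where 48.5% did (22.8% higher and 25.8% lower). In OCI-LY3 against OCI-LY10, 4 passed, all higher, where 46.6% did (26% higher). Differences between these lines are so common that the counts do not set the family apart. With poly-A scaling RELB no longer passed between OCI-LY3 and OCI-HBL1 (0.42, adjusted p = 0.11). RELA (-0.55, adjusted p = 0.021) and TNFAIP3 (-0.96, adjusted p = 0.0016) then passed as lower in OCI-LY10 than in OCI-HBL1, as did 35.9% of all genes.

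**Figure D4:**
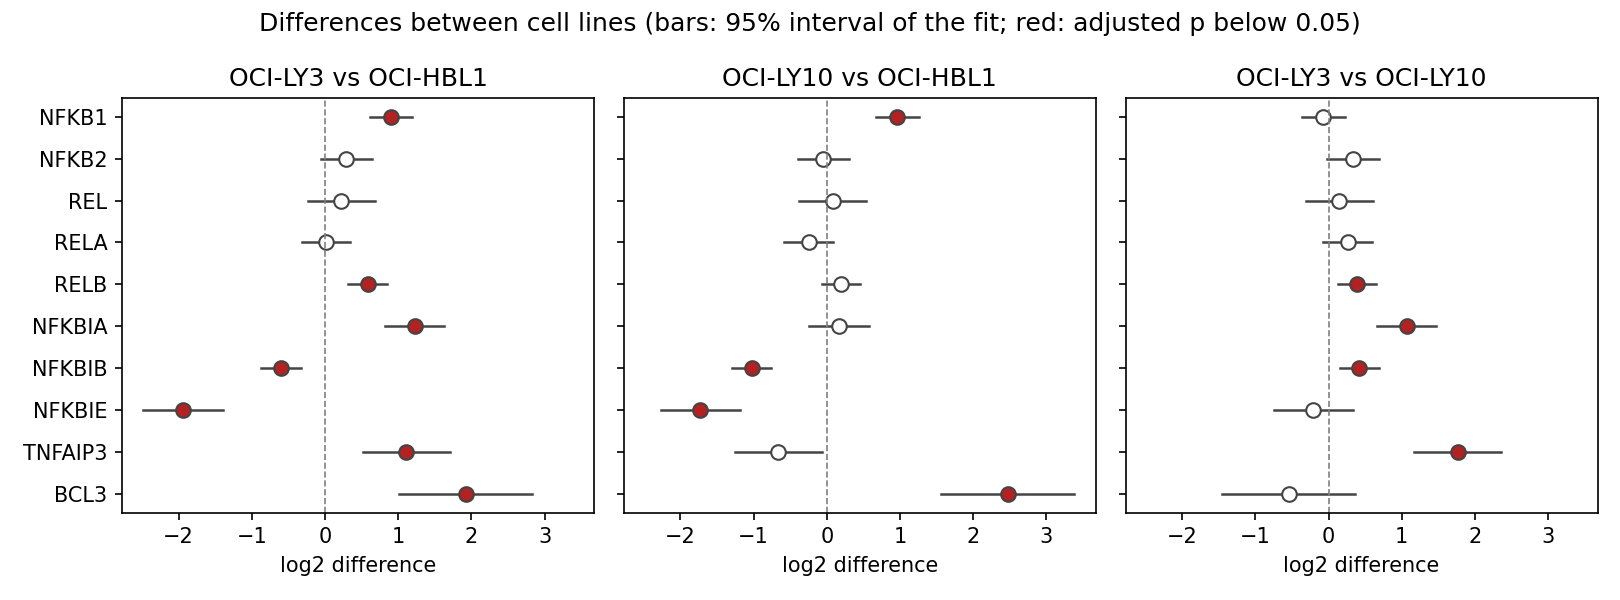
Log2 difference between cell lines (x axis) of each of the 10 genes, for the 3 pairs of lines, from the fit over 12 arrays; bars are 95% intervals and red points passed an adjusted p of 0.05. NFKBIE and NFKBIB are to the left and NFKB1 and BCL3 to the right in both comparisons with OCI-HBL1, and TNFAIP3 has the largest difference between OCI-LY3 and OCI-LY10 (1.77).

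Once the mean of each line was removed, members moved together over the 12 arrays in a few pairs, which is a description of arrays that share treatments. REL and NFKBIA had a Pearson r of 0.83, NFKB1 and REL 0.77, RELB and BCL3 0.73, and RELA and NFKBIE 0.66. BCL3 ran against REL and against NFKBIA, with an r of -0.72 for each. Among all genes tested, those with the pattern most like REL were SLIRP-OT1 (r = 0.975), PAFAH1B2 (0.965) and STYX (0.957). Those most like NFKBIA were GUK1 (0.96), QSOX1 (0.947) and UPF1 (0.946), and those most like BCL3 were FTO (0.966), VPS28 (0.96) and MRPL17 (0.955). For NFKB1 the nearest were APBB2 (0.934), NKAPL (0.912) and HHATL (0.902), and for TNFAIP3 BAG1 (0.947), FKBP1AP1 (0.921) and NBEAL2 (0.882). With 13120 genes to choose from, values of this size are found for every member.

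The genes around the family in the pathway moved in both directions under Combo, as the members did. Of the 72 genes in 4 lists, 66 could be tested. The counts below stand beside 15.4% of all genes tested that were higher under Combo and 16.7% that were lower. Among IKK kinases and their activators, 4 of 11 rose and 2 fell (median change -0.15). The kinase MAP3K8, which is held by the NFKB1 precursor, rose by 1.23 ± 0.20 (adjusted p = 0.0016), the NFKB2-processing kinase MAP3K14 rose by 0.72 ± 0.13 (adjusted p = 0.0028), and IKBKE, an IKK-related kinase, fell by 1.50 ± 0.24 (adjusted p = 0.0016). In the MYD88 arm 1 of 9 rose and 3 fell (median -0.24). The adaptor MYD88 fell by 1.17 ± 0.13 (adjusted p = 0.00024), the receptor TLR9 fell by 1.54 ± 0.27 (adjusted p = 0.0022), and the ubiquitin ligase PELI1 rose by 0.71 ± 0.18 (adjusted p = 0.015).

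Among the other inhibitors and ubiquitin editors, 5 of 15 rose and 1 fell (median 0.19). RNF11 and OTUD7B, which like TNFAIP3 take part in the ubiquitin editing of this pathway, rose by 0.94 ± 0.17 (adjusted p = 0.0025) and 1.07 ± 0.21 (adjusted p = 0.0036), while TNIP1, a binding partner of A20, fell by 0.72 ± 0.14 (adjusted p = 0.0037). Of the NF-kB target genes, 7 of 31 rose and 9 fell (median -0.43). IER3 and GADD45B, both induced early by stress, rose by 1.44 ± 0.12 (adjusted p = 8.6e-05) and 1.44 ± 0.15 (adjusted p = 2e-04), and the adhesion molecule ICAM1 fell by 1.86 ± 0.24 (adjusted p = 0.00052). Over all genes tested 2023 rose (15.4%) and 2191 fell (16.7%), with a median of 0. Poly-A scaling lowers every Combo change by 0.48 by its construction. This is more than the rises of N4BP1 (0.39) and TAX1BP1 (0.46), which were singled out after their values were seen. Whether these 2 genes rose in absolute amount was not tested. Under IRAKi alone no gene of the 4 lists passed. Under CPI203 alone, where 6.92% of all genes were higher and 6.21% lower, 3 of 31 target genes were higher and 6 lower, 3 of 9 genes of the MYD88 arm were lower, 3 of 11 IKK kinases and their activators were higher and 1 lower, and 1 of 15 other inhibitors was higher.

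**Figure D5:**
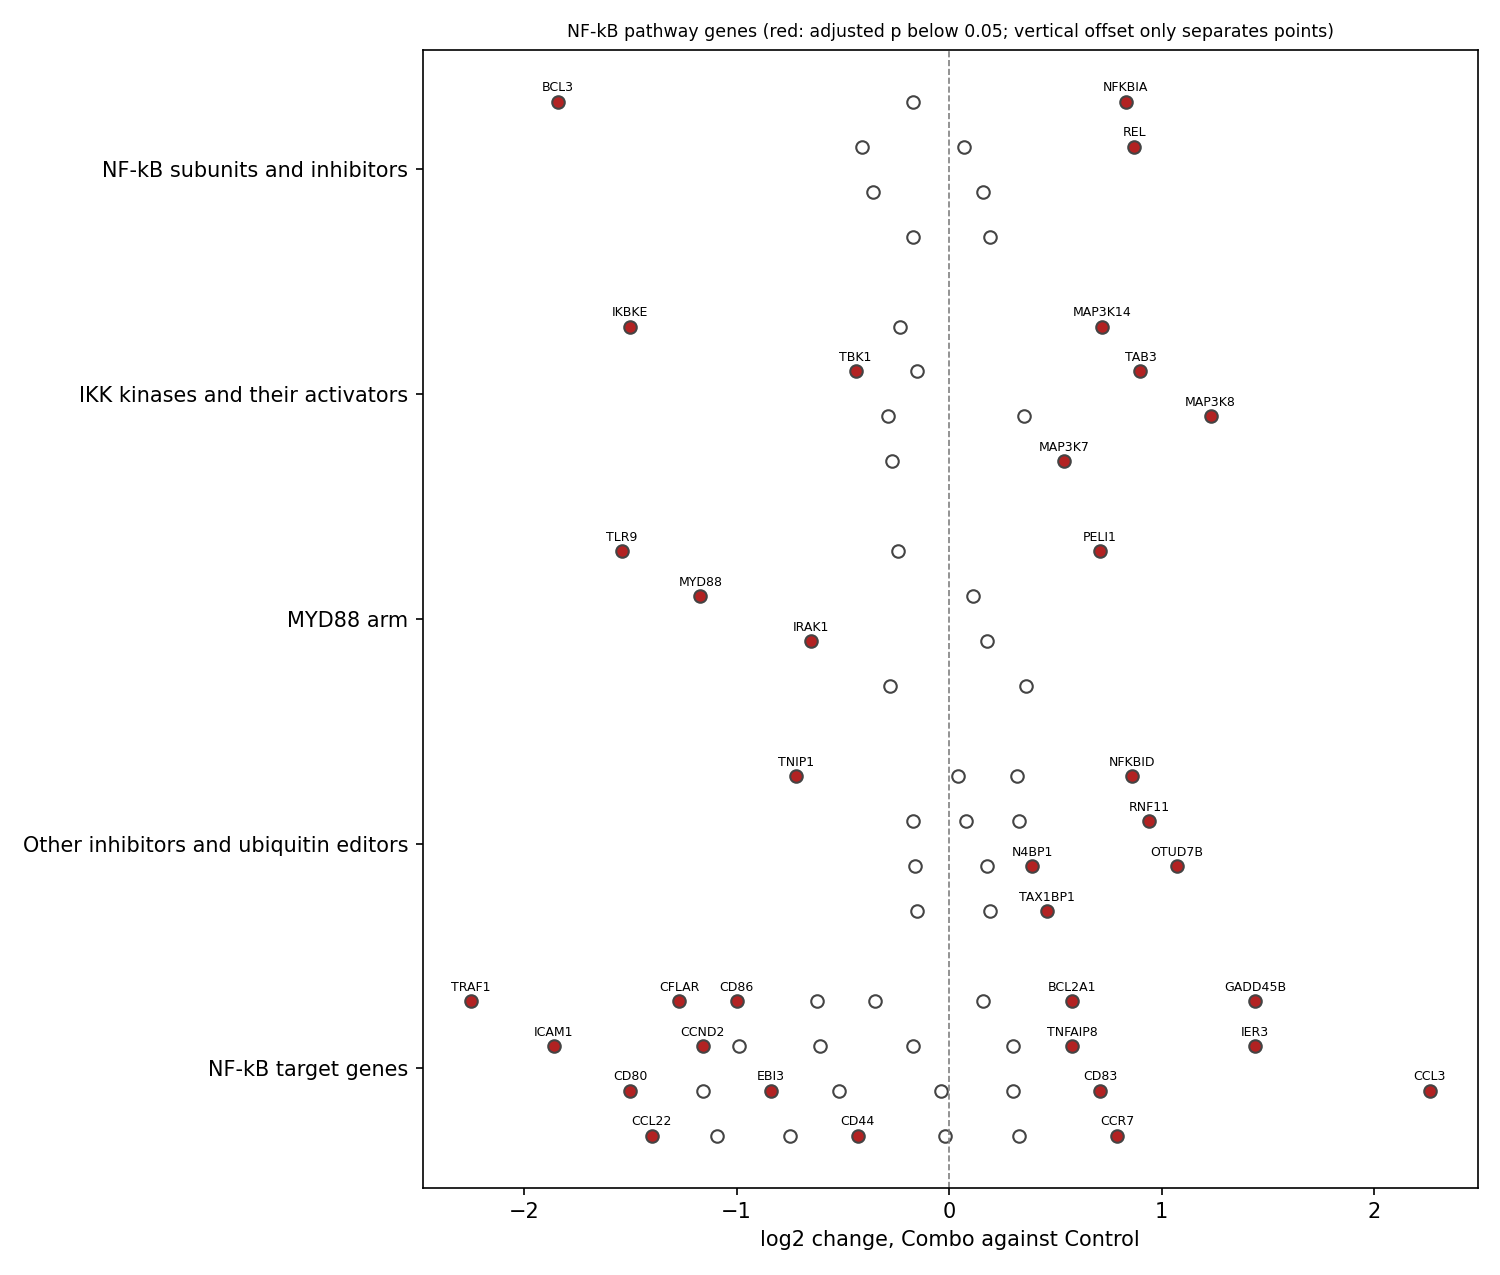
Log2 change under Combo against Control (x axis) of the 10 genes and of the tested genes of 4 pathway lists (rows); red points passed an adjusted p of 0.05 and carry their names, and the vertical offset only separates points. Each row holds genes that rose and genes that fell, with REL, NFKBIA and BCL3 as the red points among the subunits and inhibitors.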

How the data were processed

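The deposited values are log2 expression levels per probe set, which the authors made with RMA in Affymetrix Expression Console 1.1, per the submitters' processing notes. The genome build and probe library are not given in the sources used. RMA forces the arrays to a common distribution, so a change of all genes at once is not seen in these values. Of 49386 probe sets, 45253 carried 1 gene, 99.82% of them matched to a current symbol by gene id. Treatment and cell line were fitted over all 12 arrays with limma 3.58.1 in R 4.3.3 (package data.table, version 1.17.8), with 6 residual and 3.66 prior degrees of freedom. Two-sided p-values received the Benjamini-Hochberg adjustment over 13120 genes, with calls below 0.05. The cell line is the block, because every treatment was given to the same 3 lines. The number of arrays limits the precision. The members, lists and tests were chosen with earlier results of these data known. Named genes were the 10 members, up to 3 genes per pathway list with the lowest adjusted p under Combo, and the 3 genes most like a member. Promoters came from RefSeq. Alternatives covered the choice of probe set, the filter, the scaling, the variance model, the block, a 2-fold limit and arrays left out. The IRAK4, BIRC3, CCL4 and MIR155HG genes lacked a probe set that carries them alone, and TLR7 and TNFRSF9 were below the filter. A further pathway list of the design is not reported here.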

Additional observations from a re-analysis of the deposited data

How the results depend on the processing

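With the same line in each treatment group, the pairing is given by the design; with no replicate block, 0 members passed in Combo against Control (3 with it) and 0 in Combo against IRAKi (2 with it). Scaled to the poly-A controls, 5 members passed in Combo against Control, all lower (NFKB2, RELB, NFKBIB, TNFAIP3 and BCL3), where 41.8% of all genes were lower and 45.7% (6001) called, 1 in Combo against IRAKi (BCL3) and 1 in CPI203 against Control (BCL3), and NFKB1 turned to -0.32 in Combo against Control and RELB to -0.12 in OCI-LY10 against OCI-HBL1. That scaling cut the share of calls that were higher from 52.7% to 9.7% (CPI203), 68.2% to 11.8% (IRAKi), 48% to 8.6% (Combo), 42% to 19.9% (Combo against CPI203), 43.9% to 15.3% (Combo against IRAKi), 53.1% to 39.5% (OCI-LY3 against OCI-HBL1) and 46.9% to 23.7% (OCI-LY10 against OCI-HBL1), and raised it from 55.9% to 70.7% (OCI-LY3 against OCI-LY10). Array weights gave 1 member under CPI203 (BCL3), the fit on 2 groups alone 1 (NFKBIA), 2 in Combo against Control (NFKBIA and BCL3, without REL) and, in Combo against IRAKi, 1 (NFKBIA), as did averaging the probe sets per gene (1, NFKBIA). A 2-fold limit left 1 (BCL3) in Combo against Control and against IRAKi, 4 in OCI-LY3 against OCI-HBL1 and 2 in OCI-LY3 against OCI-LY10. Without the OCI-LY10 array of IRAKi, 0 passed in Combo against IRAKi. Leaving out a line gave 0 to 3 in Combo against Control (0 without OCI-LY3 or OCI-LY10) and 0 to 2 in Combo against IRAKi, and leaving out a treatment 2 to 4 in OCI-LY3 against OCI-LY10. NFKB1 in Combo against Control ranged from -0.05 to 0.31 over the lines left out. Over all genes, the 4214 calls in Combo against Control became 2072 without OCI-LY3, 2232 without OCI-LY10, 2163 in the fit on 2 groups, 1244 with the 2-fold limit and 465 with no block. Under CPI203 the 1723 became 216, 720 and 282 without OCI-LY3, OCI-HBL1 or OCI-LY10, 380 with the 2-fold limit and 4 with no block. In Combo against IRAKi the 2456 became 526 without OCI-LY3, 730 without OCI-LY10, 1487 without the OCI-LY10 array of IRAKi, 977 on 2 groups, 563 at 2-fold and 7 with no block, and in Combo against CPI203 the 612 became 0, 3 and 0 without each line, 392 with poly-A scaling, 954 with a mean-variance trend, 198 on 2 groups, 135 at 2-fold and 2 with no block. The 22 under IRAKi ran from 0 (any line left out, 2 groups alone, no block or without the OCI-LY10 array) to 220 (a mean-variance trend), and the 1 call of non-additivity became 0 with poly-A scaling, with no block and without any line. At 2-fold the line comparisons kept 2048 of 6195, 2224 of 6368 and 1969 of 6114 calls. Of the member counts, 105 stayed within 1.5 times the reported one and 20 did not. The 105 include counts of 0 that stayed 0, under CPI203, under IRAKi, in Combo against CPI203 and for non-additivity. The tally therefore does not measure how stable the calls in Combo against Control and against IRAKi were.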
